A study of Homo sapiens with 6 samples.

Results

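The comparison described here set DEV cells that had spent 5 days beside T cells against DEV cells kept alone. DEV is an established cell line and the only available line of nodular lymphocyte predominant Hodgkin lymphoma (NLPHL), a B cell lymphoma whose few tumor cells lie among many T cells and histiocytes. All 32321 probe sets of an Affymetrix Gene 1.0 array entered, and 4 of the 6 arrays of the series carried the comparison: 2 of DEV in monoculture and 2 of DEV isolated from coculture with CD3-positive T cells. The other 2 arrays, of DEV isolated from coculture with CD14-positive monocytes, entered the estimate of the spread and 1 comparison. The study asked what changes in DEV cells whose growth is impaired in the presence of blood cells.

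T cells came from the blood of healthy donors by negative isolation and were mixed with DEV at 10 blood cells per lymphoma cell. They were not matched to DEV for MHC molecules, since the study found none on the DEV surface. At day 5, DEV cells were purified from the coculture with magnetic beads against CD4, CD8 and CD14. This step is described for the cocultures and not for the monoculture, so contact with T cells, the total number of cells in the well and the bead step cannot be told apart. The arrays were chosen by the study as representative of several experiments, and nothing says whether the 2 replicates of a group came from separate donors. All p-values therefore measure only the spread between these samples, which may be technical.

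A B cell that meets T cells receives signals through CD40, cytokine receptors, adhesion molecules of the SLAM family and receptors for checkpoint ligands. MYC is a transcription factor that drives ribosome production, nucleotide synthesis and entry into the cell cycle, and germinal centre B cells switch it on briefly when T cells help them. Cells that leave the cycle usually express inhibitors of cyclin-dependent kinases, lysosomal genes and targets of FOXO factors.

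All values are log2 intensities as deposited, and differences are log2 differences from the mean of the 2 monoculture arrays. The T cell coculture arrays were unequal in strength. On replicate 1, 79 probe sets exceeded the monoculture mean by more than 1 log2 unit and 75 lay below it by as much. On replicate 2 these numbers were 358 and 584. Monocyte coculture was unequal too, with 130 and 219 on replicate 1 and 336 and 406 on replicate 2. The 2 T cell coculture arrays differed from each other by more than 1 in 303 probe sets, and the 2 monoculture arrays in 128. Every group of genes below is therefore given for each array. The expression levels are averages over all cells of a sample, in which fewer cells of a type and less RNA per cell cannot be told apart.

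B cell transcripts of DEV were well measured with T cells, and many but not all transcripts that define T cells lay under the array median. All 10 measured B cell markers of DEV, among them CD20 (MS4A1), CD22 and PAX5, lay above the array median on both T cell coculture arrays. Their summed linear level was 4848 and 4977 in monoculture, 5145 and 4213 with T cells and 4384 and 3917 with monocytes. Of 26 T cell markers, 15 and 16 lay under the array median (5.70 and 5.72) on the 2 T cell coculture arrays. CD3E, a chain of the T cell receptor complex, measured 5.06 and 4.98 in monoculture and 5.50 and 5.12 in coculture. CD4 measured 5.23 and 5.25 against 5.30 and 5.29, and CD8A measured 5.66 and 5.56 against 5.56 and 5.76. CD3D was well above the array median in every group, at 8.26 and 8.33 in monoculture and 8.07 and 8.12 in coculture.

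Some T cell and cytotoxic markers nevertheless stood slightly higher after coculture. GATA3, a transcription factor of T helper cells that other cells also use, went from 5.92 and 5.96 to 6.48 and 6.57, and the interleukin-7 receptor IL7R from 4.89 and 4.81 to 5.52 and 5.16. The granzyme gene GZMK measured 4.81 and 4.89 in monoculture and 5.23 and 5.28 in coculture. The summed linear level of the 26 T cell markers was 1696 and 1782 in monoculture, 1805 and 1788 with T cells and 1617 and 1575 with monocytes. That of 21 cytotoxic and NK cell markers was 1102 and 1362, then 1412 and 1475, then 1145 and 1231. Of these 21, 11 lay above monoculture on both arrays and 1 below (52.4% and 4.76%), with mean differences up to 0.55. Of the 26 T cell markers 9 lay above and 3 below (34.6% and 11.5%), against 25.6% and 24.7% of all genes. After each array was centred on its median, these shares were 23.8% and 19% for cytotoxic and 26.9% and 23.1% for T cell markers. Over all genes they were then 15.2% and 34.9%. The other T cell markers of the list (CD2, CD3G, CD5, CD6, CD7, CD8B, CD28, CD247, LCK, ZAP70, LAT, TRAT1, UBASH3A, THEMIS, BCL11B, LEF1, CAMK4, ICOS, CTLA4 and SIT1) differed from the monoculture mean by between -0.28 and 0.47 on either array. None of these markers was called in limma, and the part that remaining T cells had in the differences below was not tested. The sums of 18 monocyte markers were 1715 and 1838 in monoculture and 1438 and 1115 with T cells. Of the 18, 5 lay above and 2 below monoculture with a median difference of 0.01, and the brightest in monoculture, the oxidase subunit gene CYBB, measured 9.46 and 9.20 against 8.55 and 7.27. The sums of 8 platelet markers were 327 and 335 against 350 and 363, and the sums of 5 erythroid markers were 190 and 184 against 191 and 210.

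**Figure D1:**
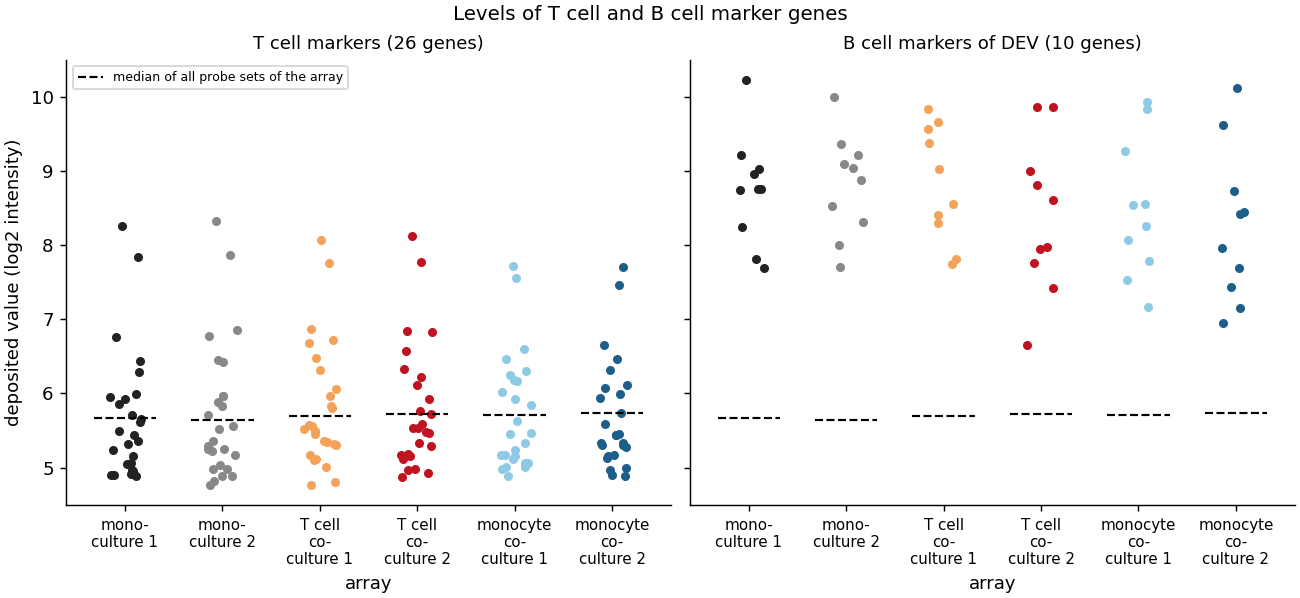
Deposited log2 values of 26 T cell markers (left) and 10 B cell markers of DEV (right), 1 point per gene, on each of the 6 arrays; the dashed line is the median of all probe sets of that array. On the T cell coculture arrays 15 and 16 T cell markers lie under that line, and all B cell markers lie above it.

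No probe set differed between T cell coculture and monoculture at the threshold of limma's moderated test with Benjamini-Hochberg adjustment (0 of 32321 at an adjusted p under 0.05, 0.0%). The smallest adjusted p was 0.07798. At an unadjusted p under 0.05 there were 4987 probe sets (15.4%), 2166 higher and 2821 lower with T cells. With replicate 1 of the T cell coculture left out, 317 probe sets were called higher (0.981%) and 1074 lower (3.32%); the lone array was then assumed to vary like the other groups. With replicate 2 left out instead, 0 were called, and 3050 had an unadjusted p under 0.05. An exact permutation test of 2 arrays against 2 cannot give a p below 0.333, so none was used for single genes.

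The arrays were therefore also compared by order. Both T cell coculture arrays lay above both monoculture arrays in 8315 probe sets (25.7%) and below both in 6758 (20.9%). After each array was centred on its median, these counts were 5203 above and 9914 below, since the coculture arrays had slightly higher medians. Counted once per gene, 4716 of 18404 genes lay above (25.6%) and 4553 below (24.7%), or 15.2% and 34.9% after centring. Counts of list members below are to be read beside these shares. The nearest arrays of the 2 groups were at least 1 log2 unit apart in 15 probe sets that were higher with T cells (0.0464%) and 34 that were lower (0.105%). Of these 34, 20 carried 1 gene symbol, 2 several and 12 none. The genes named next are the 15 in each direction with the widest gap among probe sets that carry 1 gene symbol and are no small RNA, and this choice used the values it describes.

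Genes higher beside T cells included several of the lymphocyte surface and of vesicle and lysosome traffic. CD52, a small glycoprotein of the lymphocyte surface, measured 8.69 and 8.60 in monoculture and 10.13 and 10.16 in T cell coculture. Its difference of 1.50 ± 0.12 (SE, n = 2 per group) was a 2.82-fold higher level with a limma adjusted p of 0.07798. The monocyte coculture arrays lay between, at 9.60 and 9.33. RAB3A, a small GTPase of regulated exocytosis, measured 6.46 and 6.77 in monoculture against 8.48 and 10.19, a mean difference of 2.72 ± 0.52 with adjusted p = 0.125 in limma. Its coculture arrays were both higher, but 1.71 apart from each other.

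WNK1 encodes a kinase that controls sodium and chloride transport. One of its probe sets went from 6.63 and 6.40 to 8.50 and 9.07, and a brighter one measured 9.71 and 9.66 against 9.88 and 9.73. The probe sets of this gene thus disagreed, and only the dimmer one separated the groups by more than 1. MYLIP, a ubiquitin ligase that acts on the LDL receptor, measured 7.95 and 7.93 against 9.19 and 9.46. LY9, a receptor of the SLAM family through which T and B cells adhere, measured 6.30 and 6.82 against 8.0 and 8.49. RGS1, which dampens chemokine receptor signals in B cells, measured 9.06 and 9.32 against 10.40 and 10.89, and TEC, a kinase of B cell receptor signalling, 7.48 and 7.38 against 8.86 and 8.55.

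Lysosomal and metabolic genes followed. GM2A, the activator protein for ganglioside breakdown, measured 8.94 and 9.35 in monoculture and 10.33 and 10.81 in T cell coculture. NPC2, which carries cholesterol out of lysosomes, measured 8.08 and 8.42 against 9.39 and 10.35. RRAGD, a GTPase that brings mTORC1 to the lysosome, measured 6.20 and 6.57 against 7.54 and 8.73. The glucose transporter gene SLC2A3 measured 7.42 and 7.57 against 8.51 and 8.56, the fatty acid binding protein gene FABP3 5.64 and 5.87 against 6.87 and 8.24. The remaining genes were SLC35B2, a sulfate donor transporter, HMCES, a shield of abasic DNA sites, and the pseudogene GOLGA2P11, whose signal may be shared with related copies. Their mean differences were 1.37, 1.44 and 1.80.

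Among these genes MYC had the widest gap below monoculture. It measured 10.03 and 10.12 in monoculture, 8.42 and 6.54 in T cell coculture and 6.71 and 6.38 in monocyte coculture. The mean difference of 2.60 ± 0.56 was a 6.05-fold lower level with adjusted p = 0.133 in limma. Both T cell coculture arrays lay far below monoculture, and replicate 1 lay 1.88 above replicate 2. MAT2A, which makes the methyl donor S-adenosylmethionine, was even between replicates: 10.08 and 10.05 against 8.44 and 8.18, a difference of -1.76 ± 0.11 with adjusted p = 0.07798 in limma. P2RY14, a receptor for UDP-glucose, measured 8.95 and 9.22 against 7.40 and 6.25.

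The microRNA gene MIR155, known from activated B cells, shares a probe set with its host transcript MIR155HG and so stands outside that ranking. Its gap of 2.17 was wider than the 1.61 of MYC. The probe set measured 8.44 and 9.19 in monoculture and 6.27 and 6.07 in T cell coculture, a difference of -2.64 ± 0.24 with adjusted p = 0.07798 in limma. The coculture arrays were close to each other here, and the wider spread lay in monoculture. The signal does not separate host transcript from microRNA. The mature sequences are shown because this was the only microRNA locus among the genes the study named; RefSeq (GRCh38.p14) places them on the plus strand at chr21:25573983-25574006 for the 5p arm and chr21:25574022-25574043 for the 3p arm, and capitals mark the seed, bases 2 to 8.
hsa-miR-155-5p: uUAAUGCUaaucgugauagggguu
hsa-miR-155-3p: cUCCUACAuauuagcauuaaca

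Further genes with a wide gap below monoculture served secretion, interferon response and replication. CXCL13, the chemokine that draws cells into B cell follicles, measured 6.44 and 6.77 against 5.34 and 5.25, values under the array median with T cells. SAMD9L, an interferon-inducible growth inhibitor, measured 7.16 and 7.0 against 5.77 and 5.29. ALDH1L2, a mitochondrial folate enzyme, measured 7.14 and 7.30 against 5.99 and 5.90, with monocyte coculture at 6.80 and 6.95. TIPIN, which stabilises stalled replication forks, measured 8.51 and 8.46 against 7.38 and 6.72. The actin gene ACTG2, whose signal may include other actins, measured 10.72 and 10.84 against 9.29 and 9.06.

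Differences of the other lower genes lay between 1.12 and 1.60 log2 units below monoculture. They were ACP3, a phosphatase, UROS, of heme synthesis, MRPL1, of the mitochondrial ribosome, FAM111B, a protease, the long noncoding RNA LINC01963, and NOP58 and UTP14A, described below. Over all 30 genes the limma adjusted p ran from 0.07798 to 0.1465. Replicate 2 lay farther from monoculture than replicate 1 in 28 of the 30.

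**Figure D2:**
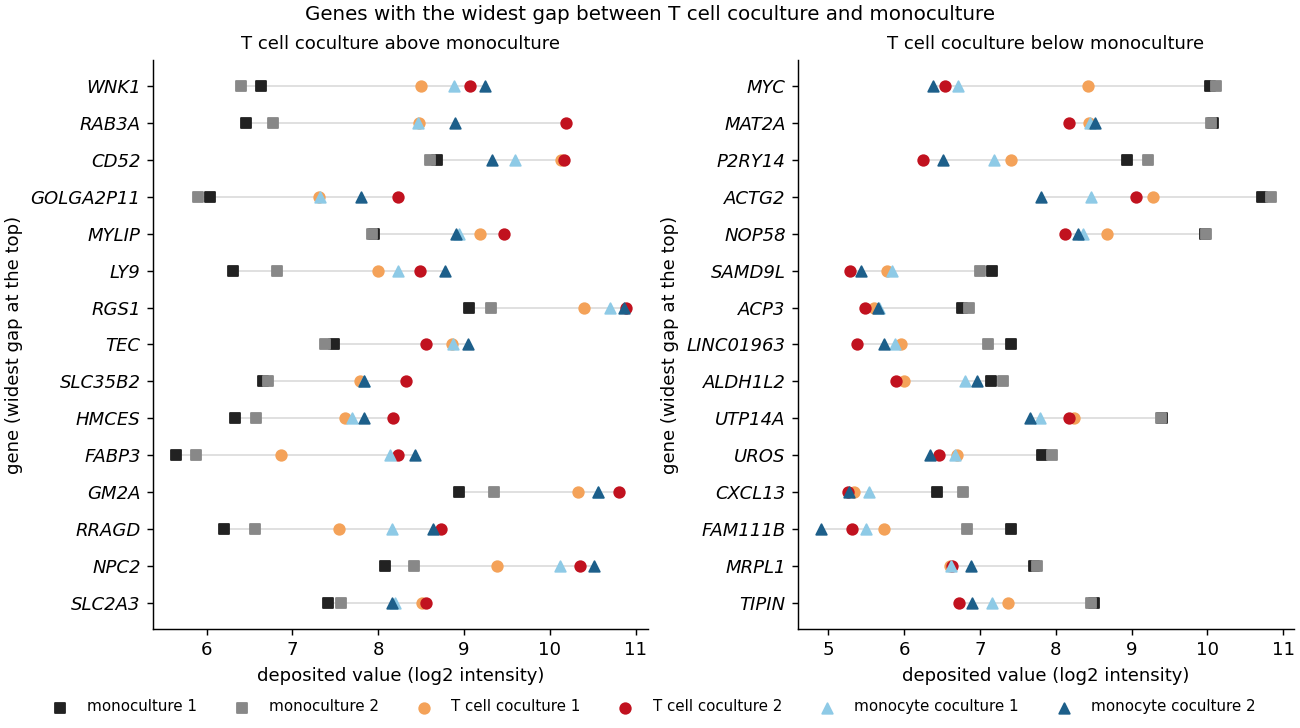
Deposited log2 values of the 15 genes with the widest gap above monoculture (left) and the 15 with the widest gap below it (right), among probe sets with 1 gene symbol, 1 plotting mark per array (squares monoculture, circles T cell coculture, triangles monocyte coculture). CD52, MAT2A and UTP14A have coculture replicates close together, while RAB3A and MYC have theirs more than 1 log2 unit apart.

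Genes of ribosome biogenesis stood together below monoculture. Of 42 measured genes, 40 had both T cell coculture arrays below both monoculture arrays and 0 had both above, against 24.7% and 25.6% of all genes, and centring left both counts as they were. The list median was -0.69, being -0.47 in replicate 1 and -0.87 in replicate 2, while the median over all genes was 0.01. The box C/D particle gene NOP58 measured 9.97 and 9.99 in monoculture and 8.68 and 8.13 with T cells. UTP14A, needed to process the small subunit, measured 9.40 and 9.38 against 8.24 and 8.17, with equal strength in both replicates. RRS1, of the large subunit, measured 7.18 and 7.0 against 6.07 and 5.89, and MPHOSPH10, of the small subunit processome, 8.26 and 8.42 against 7.45 and 7.05. No member was called in limma. The ribosomal protein genes did not share this pattern: 31 of 33 had a mean above monoculture, but 30 of 33 had overlapping arrays, with 1 above and 2 below.

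The promoters of these genes are shown because MYC binds the E-box CACGTG, which reads the same on both strands. The motif occurred in 17 of 35 biogenesis genes with a promoter in the RefSeq table (48.6%), from 250 bases before to 50 after the start, against 1557 of 14228 genes of the array (10.9%). The 2 sequences below are from members with the motif, in GRCh38.p14, UTP14A at chrX:129905914-129906213 and UTP20, another small subunit processome gene, at chr12:101279855-101280154, both on the plus strand. Capitals mark the E-box. UTP20 measured 7.66 and 7.75 in monoculture and 6.85 and 6.32 in T cell coculture. The growth lists described next varied in their share of promoters with the motif. It was 39.4% for the MYC network list and 25.0% for nucleotide synthesis. For cytosolic and mitochondrial chaperones it was 3 of 22 (13.6%) and for aminoacyl tRNA synthetases 1 of 16 (6.25%). Whether genes with the motif differed from those without it was not tested. A match describes the letters of this window and is no measurement of binding.
UTP14A: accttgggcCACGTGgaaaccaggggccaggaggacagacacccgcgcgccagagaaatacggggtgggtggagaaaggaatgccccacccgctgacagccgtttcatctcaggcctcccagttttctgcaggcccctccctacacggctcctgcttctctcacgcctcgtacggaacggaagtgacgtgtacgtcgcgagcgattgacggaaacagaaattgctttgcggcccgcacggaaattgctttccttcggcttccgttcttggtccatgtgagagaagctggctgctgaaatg
UTP20: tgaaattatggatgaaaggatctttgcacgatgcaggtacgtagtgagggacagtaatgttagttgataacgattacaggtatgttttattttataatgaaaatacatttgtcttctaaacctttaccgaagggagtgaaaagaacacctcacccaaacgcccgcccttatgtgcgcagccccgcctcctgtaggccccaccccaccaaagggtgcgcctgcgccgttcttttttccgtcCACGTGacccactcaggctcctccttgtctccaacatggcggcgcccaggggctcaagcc

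Other growth genes lay lower as well. Of 19 aminoacyl tRNA synthetases, which charge tRNAs with amino acids, 14 lay below monoculture on both arrays and 1 above, with a median of -0.37. These were 73.7% and 5.26%, against 24.7% and 25.6% of all genes. IARS1 measured 9.69 and 9.66 against 8.89 and 8.23, and TARS1 9.41 and 9.26 against 8.46 and 7.96. Of 25 cytosolic and mitochondrial chaperones 17 lay below and 4 above, with medians of -0.36 and -0.48 in the 2 replicates. HSPA8, the constitutive HSP70, measured 11.86 and 11.90 against 10.97 and 10.95, DNAJA1, its cochaperone, 9.0 and 9.17 against 8.05 and 7.80, and CCT2, of the actin and tubulin folding complex, 10.50 and 10.66 against 9.88 and 9.69.

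The MYC network list, of MYC partners and metabolic targets, had 21 of 36 genes below and 6 above, with a median of -0.21. These were 58.3% and 16.7%, against 24.7% and 25.6% of all genes. TFRC, the transferrin receptor, measured 8.29 and 8.32 against 7.65 and 7.56, and ODC1, the first enzyme of polyamine synthesis, 11.55 and 11.48 against 10.95 and 10.82. Its E-box share was 13 of 33 promoters (39.4%). Nucleotide synthesis was uneven: 8 of 22 genes lay below (36.4%) and 0 above, with a median of -0.00 in replicate 1 and -0.31 in replicate 2. ADSL, of purine synthesis, measured 8.16 and 8.20 against 7.47 and 7.50, and UMPS, of pyrimidine synthesis, 7.76 and 7.84 against 7.13 and 6.47.

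**Figure D3:**
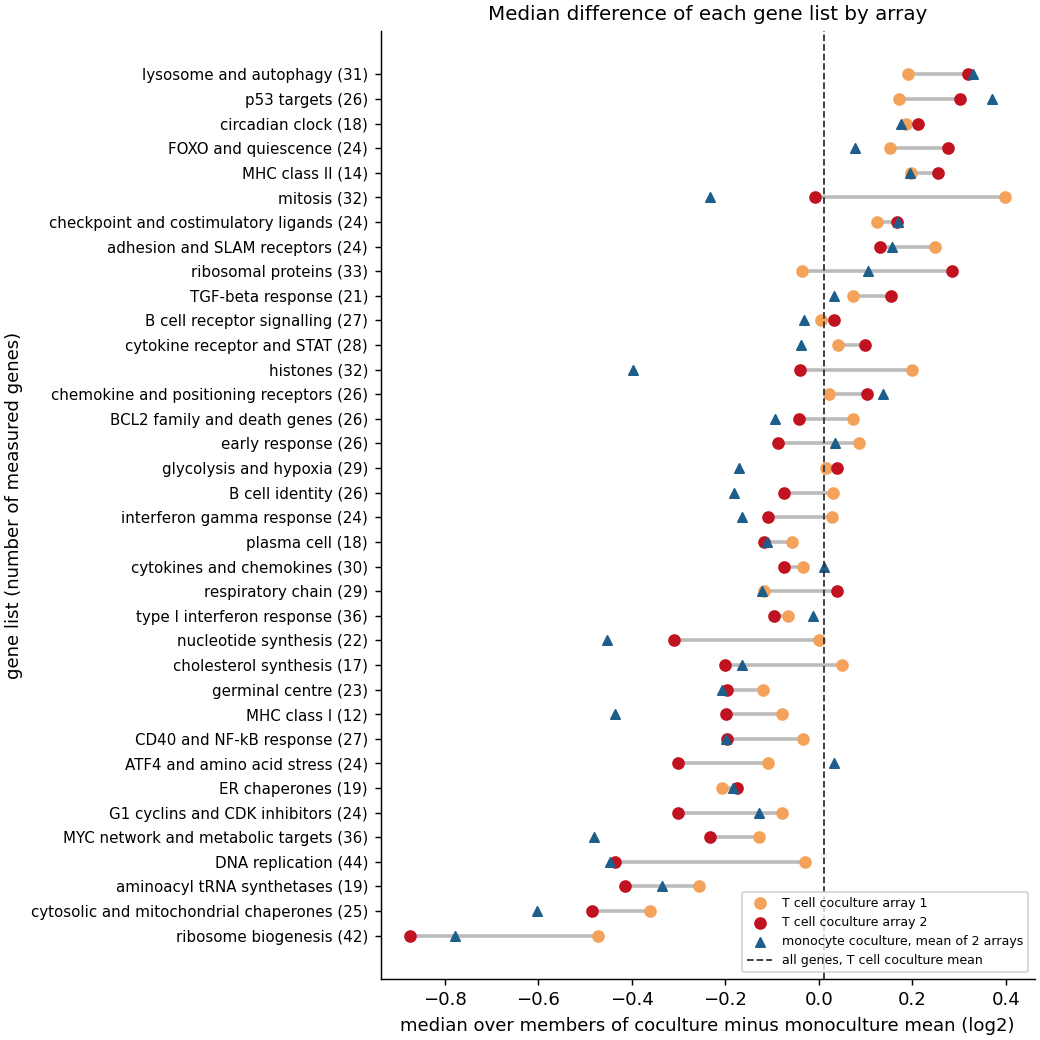
Median log2 difference from the monoculture mean for each gene list other than the markers and the genes the study named, with the number of measured genes in brackets; circles are the 2 T cell coculture arrays, triangles the mean of monocyte coculture, and the dashed line the median of all genes in T cell coculture. Of the lists plotted, ribosome biogenesis lies lowest on both arrays (-0.47 and -0.87), and mitosis and ribosomal proteins have arrays on opposite sides of 0.

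Cell cycle lists differed from each other and between the arrays. Of 44 DNA replication genes 22 lay below monoculture on both arrays and 4 above. Their median was -0.03 in replicate 1 and -0.44 in replicate 2, and replicate 2 lay below replicate 1 in 43 of 44, against 49.3% of all genes. POLA1, the catalytic subunit of DNA polymerase alpha, measured 8.35 and 7.99 in monoculture and 7.50 and 6.94 with T cells. CDC6, which loads the MCM helicase, measured 7.78 and 7.53 against 7.14 and 6.50, and MCM3, a helicase subunit, 8.67 and 8.38 against 7.99 and 7.35.

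Genes of mitosis lay the other way on replicate 1 alone. There 28 of 32 were above both monoculture arrays and 1 below, against 36.3% and 37.8% of all genes. On replicate 2, 11 were above and 9 below, against 43.7% and 37.4%. The medians were 0.40 and -0.01. For the mean of both arrays the median was 0.18, which therefore rests on replicate 1, as it is -0.01 without that array. AURKB, the kinase of the chromosomal passenger complex, was higher on both arrays, 8.10 and 7.88 in monoculture against 8.76 and 8.87. PTTG1, the securin, measured 10.63 and 10.82 against 11.18 and 11.64, and the phosphatase CDC25B 6.43 and 6.28 against 6.88 and 6.87.

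The histone list resembled mitosis, with 10 of 32 genes above (31.2%) and 2 below (6.25%), against 25.6% and 24.7% of all genes. Its medians were 0.20 and -0.04. For the mean of both arrays the median was 0.06, and it turned to -0.00 when arrays were centred. Signals of single histone genes may be shared with near-identical relatives. H2BC11 measured 5.91 and 6.06 against 6.50 and 6.68. Regulators of G1 lay in both directions. The kinase inhibitors CDKN1B, or p27, with 9.38 and 9.52 against 10.03 and 10.03, and CDKN1A, or p21, with 6.07 and 6.53 against 7.27 and 7.10, were higher with T cells. So was the kinase gene CDK2, with 8.73 and 9.24 against 9.94 and 10.72. CUL1, the scaffold of SCF ubiquitin ligases, measured 8.62 and 8.64 against 7.93 and 7.13, and CCND3, a D type cyclin, 9.0 and 9.32 against 8.68 and 7.94. Of 24 such genes 12 lay below and 5 above.

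**Figure D4:**
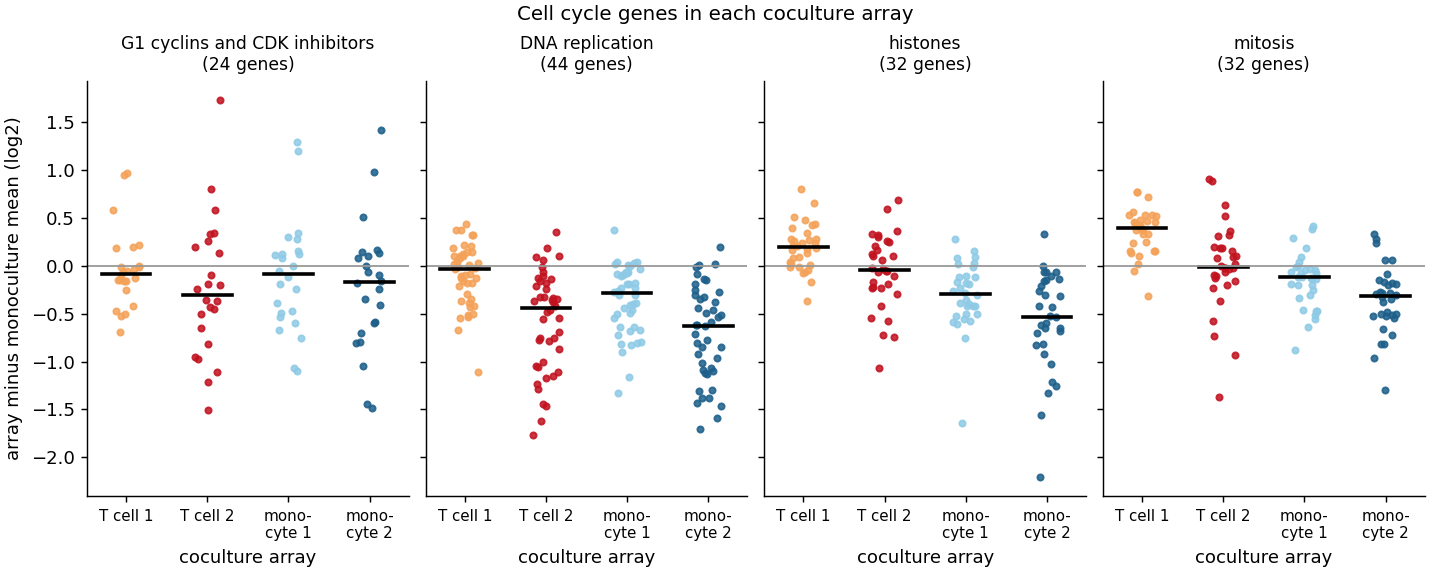
Log2 difference from the monoculture mean of each measured gene of the G1, DNA replication, histone and mitosis lists, by coculture array (1 point per gene, bar at the median). The mitosis median is 0.40 on T cell coculture replicate 1, -0.01 on replicate 2, -0.12 and -0.32 on the monocyte coculture arrays.

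Targets of p53, lysosomal genes and targets of FOXO were more often above monoculture. Of 26 p53 targets 15 lay above on both arrays and 2 below (57.7% and 7.69%, against 25.6% and 24.7% of all genes). The p53 target medians were 0.17 and 0.30. The translesion polymerase POLH measured 7.66 and 7.31 against 8.56 and 8.25, SESN1, an inhibitor of mTORC1 signalling, 6.64 and 6.68 against 7.64 and 7.26, and the proapoptotic gene BAX 7.24 and 7.25 against 7.71 and 7.63. Members of the BCL2 family and other death genes had no common direction, with 10 of 26 above (38.5%) and 8 below (30.8%). BMF, a proapoptotic BH3-only gene, measured 7.90 and 7.93 against 7.02 and 6.42, and the survival gene BCL2A1 10.01 and 10.12 against 9.59 and 9.23.

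Of 31 lysosome and autophagy genes 21 lay above monoculture on both arrays and 3 below (67.7% and 9.68%, against 25.6% and 24.7% of all genes). After centring 15 lay above and 6 below (48.4% and 19.4%, against 15.2% and 34.9% of all genes). The medians were 0.19 and 0.32. Beside GM2A and NPC2, the protease gene CTSS measured 8.15 and 8.22 against 8.77 and 8.89, and the autophagosome gene GABARAPL1 5.76 and 6.07 against 6.68 and 7.06. The E-box CACGTG was present in 6 of 23 promoters of this list (26.1%). Its extended form TCACGTGA, the element of the lysosomal regulator TFEB and which also reads the same on both strands, was in 5 of the 23 (21.7%) against 244 of 14228 (1.71%). ATP6V0D1, whose promoter held the extended form, lay lower with T cells, at 8.65 and 8.71 against 8.46 and 8.28. CTSD, with the E-box alone, lay higher, at 6.47 and 7.0 against 7.26 and 7.58. Whether members with either motif differed from the other members was not tested. Of 24 FOXO and quiescence genes 13 lay above and 3 below (54.2% and 12.5%, against 25.6% and 24.7% of all genes). PIK3IP1, an inhibitor of PI3 kinase, measured 5.64 and 5.46 against 6.29 and 6.49.

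Genes of the circadian clock were similar in both replicates. Of 18 genes 10 lay above monoculture on both arrays (55.6%) and 0 below, the same after centring, with medians of 0.19 and 0.21. Over all genes 25.6% lay above and 24.7% below, or 15.2% and 34.9% after centring. PER1, a repressor of the clock, measured 6.04 and 6.24 in monoculture and 6.76 and 6.86 with T cells. BHLHE41, which represses at E-boxes, measured 8.32 and 8.49 against 9.13 and 9.41. NR1D1, the heme-binding repressor REV-ERB alpha, had the largest difference of the list, 6.94 and 7.79 against 8.63 and 10.03, and its replicates were 1.40 apart. Clock factors act on E-boxes, and 6 of the 18 promoters held CACGTG (33.3%). The promoters of PER1 (chr17:8152355-8152654) and BHLHE41 (chr12:26124988-26125287), both on the minus strand of GRCh38.p14 and from RefSeq, are shown as examples with the E-box in capitals.
PER1: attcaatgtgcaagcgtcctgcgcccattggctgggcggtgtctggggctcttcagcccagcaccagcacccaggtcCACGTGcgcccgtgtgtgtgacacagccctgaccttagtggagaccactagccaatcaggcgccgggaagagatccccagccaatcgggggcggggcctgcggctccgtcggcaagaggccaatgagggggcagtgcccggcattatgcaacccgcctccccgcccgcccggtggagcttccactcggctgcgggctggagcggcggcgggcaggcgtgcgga
BHLHE41: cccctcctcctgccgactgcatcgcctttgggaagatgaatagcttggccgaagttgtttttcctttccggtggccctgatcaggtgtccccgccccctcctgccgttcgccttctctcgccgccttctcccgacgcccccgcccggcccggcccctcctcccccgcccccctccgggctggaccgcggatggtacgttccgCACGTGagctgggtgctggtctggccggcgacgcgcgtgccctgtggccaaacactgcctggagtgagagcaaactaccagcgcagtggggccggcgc

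Molecules through which a B cell meets a T cell lay above monoculture more often than below it, and many overlapped. CD274, or PD-L1, the ligand of the inhibitory receptor PD-1, measured 7.24 and 7.41 in monoculture and 8.22 and 8.65 with T cells, a difference of 1.11 ± 0.19 with adjusted p = 0.115 in limma. TNFRSF14, a ligand of the inhibitory receptor BTLA, measured 6.88 and 7.25 against 7.76 and 8.16. CD86, which costimulates T cells through CD28, lay the other way, at 7.65 and 7.87 against 7.06 and 6.54. With monocytes CD274 measured 8.20 and 8.60, TNFRSF14 8.20 and 8.28 and CD86 6.89 and 6.71. Of 24 checkpoint and costimulatory ligands 12 lay above, 11 overlapped and 1 lay below, with 9 above and 1 below after centring. Of 24 adhesion and SLAM receptors 13 lay above, 9 overlapped and 2 lay below, with 11 above and 5 below after centring. Among those above were CD81, a tetraspanin, with 8.47 and 8.50 against 9.24 and 9.07, and the integrin gene ITGB1 with 6.08 and 6.16 against 6.62 and 6.69. Over all genes 25.6% lay above and 24.7% below, or 15.2% and 34.9% after centring. The median of the ligands was 0.17 with T cells and 0.17 with monocytes, and that of the adhesion and SLAM receptors 0.15 and 0.16.

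Antigen presentation genes were counted by class, and the classes were not tested against each other. Of 14 MHC class II genes 7 lay above monoculture on both arrays, 7 overlapped and 0 lay below, with medians of 0.20 and 0.25. After centring 6 lay above and 0 below. Over all genes 25.6% lay above and 24.7% below, or 15.2% and 34.9% after centring. HLA-DQB1 measured 5.69 and 5.58 in monoculture, 6.17 and 7.81 with T cells, and 6.84 and 7.52 with monocytes, so that its 2 T cell coculture arrays were 1.64 apart. HLA-DRB5 measured 5.35 and 5.34 against 6.01 and 6.23. The signal of HLA genes cannot be assigned to 1 gene with certainty. Of 12 class I genes 0 lay above and 5 below, or 6 below after centring. The proteasome activator PSME2 measured 9.36 and 9.27 against 8.92 and 8.34, and the immunoproteasome subunit PSMB9 10.89 and 10.94 against 10.84 and 9.97, which is close to monoculture on replicate 1.

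Responses to cytokines had no common direction. Over all genes 25.6% lay above monoculture and 24.7% below, or 15.2% and 34.9% after centring. Of 27 CD40 and NF-kB response genes 14 lay below monoculture and 8 above, with medians of -0.03 and -0.20. The inhibitor NFKBIE was higher, 6.99 and 7.11 against 7.87 and 7.56, and the adaptor TRAF1 lower, 7.29 and 7.33 against 6.88 and 6.66. Of 24 interferon gamma response genes 5 lay above and 8 below. Of 36 type I interferon response genes 5 lay above and 14 below (13.9% and 38.9%), or 3 and 22 after centring (8.33% and 61.1%). SAMD9 measured 7.11 and 6.71 against 6.08 and 5.66, and TRIM22 7.79 and 7.82 against 8.30 and 8.28. Of 21 TGF-beta response genes 10 lay above and 2 below (47.6% and 9.52%), and 5 and 5 after centring (23.8% each). ID3, an inhibitor of E proteins, measured 5.47 and 5.67 against 6.35 and 6.53, and SMAD3, a transducer of the pathway, 6.27 and 6.28 against 6.83 and 7.39.

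Among cytokine receptor and STAT genes 10 of 28 lay above and 9 below (35.7% and 32.1%, against 25.6% and 24.7% of all genes). STAT5A, a transducer of interleukin-2 family signals, measured 7.41 and 7.51 against 8.37 and 8.56, and the receptor chain IL2RB 5.69 and 5.72 against 6.35 and 6.67. Of 30 cytokines and chemokines 9 lay above and 11 below (30.0% and 36.7%). IL6 measured 8.05 and 8.89 in monoculture, 7.21 and 6.67 with T cells and 7.69 and 7.75 with monocytes. IL23A, a subunit of interleukin-23, measured 6.30 and 6.48 against 7.01 and 7.42, and IL7, a survival factor of T cells, 7.19 and 7.12 against 6.59 and 6.31.

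The B cell programme contained genes of both directions. Of 26 B cell identity genes 6 lay above and 6 below (23.1% each, against 25.6% and 24.7% of all genes). CD20 (MS4A1) measured 9.22 and 9.22 against 9.83 and 9.87, and CD22 9.03 and 9.37 against 9.66 and 9.86. Of 23 germinal centre genes 11 lay below and 5 above (47.8% and 21.7%). SERPINA9, a germinal centre protease inhibitor, measured 6.87 and 6.58 against 5.64 and 5.48, and the elongation factor ELL3 7.74 and 7.66 against 7.12 and 6.86. PRDM1, the master regulator of plasma cells, measured 8.85 and 9.03 against 9.86 and 10.16, a difference of 1.07 ± 0.14 with adjusted p = 0.0943 in limma. It was 1 of 4 plasma cell genes above monoculture, with 6 of 18 below (22.2% and 33.3%, against 25.6% and 24.7% of all genes). CAV1, a caveolar coat protein, also lay above, at 6.40 and 6.49 against 7.13 and 7.04, while TNFRSF17, or BCMA, measured 6.90 and 7.20 against 6.08 and 5.97.

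B cell receptor signalling had 8 of 27 genes above and 9 below (29.6% and 33.3%, against 25.6% and 24.7% of all genes). LCP2, an adaptor of immune receptor signalling, measured 7.45 and 7.82 against 8.63 and 8.58, and PRKCB, the kinase upstream of NF-kB, 6.63 and 6.67 against 7.31 and 7.35. Of 26 chemokine and positioning receptors 6 lay above and 5 below, and of 26 early response genes 5 above and 3 below, near or under the shares of all genes. The early response factor JUN measured 7.02 and 7.28 against 6.47 and 6.24.

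Stress and energy lists were mixed or lower. Over all genes 25.6% lay above monoculture and 24.7% below. Of 19 ER chaperone genes 11 lay below and 2 above, with medians of -0.21 and -0.17, and the ER chaperone BiP (HSPA5) measured 9.75 and 9.99 against 9.24 and 9.54. Of 24 ATF4 and amino acid stress genes 12 lay below and 3 above, although DDIT3, or CHOP, lay above, at 6.61 and 7.10 against 7.80 and 8.13. Glycolysis and hypoxia genes numbered 10 above and 11 below of 29, with LDHA at 9.76 and 9.81 against 9.16 and 8.47. Of 29 respiratory chain genes 6 lay above and 9 below (20.7% and 31.0%), and of 17 cholesterol synthesis genes 4 above and 6 below (23.5% and 35.3%).

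The replicates of the T cell coculture differed most in a few regulators. CCR7, the receptor that guides lymphocytes to T cell zones, measured 9.83 and 10.33 in monoculture, 10.18 on replicate 1 and 7.30 on replicate 2, and 10.45 and 9.64 with monocytes. PAX5, the B cell master regulator, measured 10.23 and 10.00, then 9.57 and 7.77. The immediate early gene EGR1 measured 8.56 and 8.90, then 10.33 and 8.03, so that the 2 coculture arrays lay on opposite sides of monoculture. TXNIP, a glucose-responsive brake on glucose uptake, measured 8.84 and 8.85, then 7.21 and 9.10. The cochaperone DNAJB1 also lay on opposite sides, 6.70 and 6.72, then 5.67 and 7.26. With monocytes PAX5 measured 8.26 and 7.43, EGR1 9.10 and 8.21, TXNIP 7.78 and 7.56 and DNAJB1 6.41 and 6.56. For these genes the mean of the 2 T cell coculture arrays describes neither array.

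The 10 genes that were lower on replicate 2 by most were CCR7, EGR1, MYC, PAX5, DYNLT1, H4C14, NOP16, P2RY8, H4C2 and PPP1R10, and the 10 that were higher by most were TXNIP, TVP23A, RAB3A, HLA-DQB1, DNAJB1, TGIF1, NR1D1, FABP3, GADD45B and RPS20P27. MYC, described above, was 1.88 lower on replicate 2. NOP16, a nucleolar protein, measured 8.91 and 9.0 in monoculture, then 8.17 and 6.73, and P2RY8, which confines B cells to germinal centres, 8.88 and 8.78, then 8.48 and 7.11. Of 18715 probe sets with 1 gene symbol and no small RNA, 1087 had replicate 1 above and replicate 2 below both monoculture arrays, and 1503 the reverse. Among the former was CDCA3, a trigger of mitotic entry, with 8.18 and 7.99, then 8.66 and 7.62.

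In the 15073 probe sets whose arrays did not overlap, replicate 2 lay farther from monoculture in 10342 (68.6%), with median distances of 0.19 and 0.26. The difference from a separate monoculture array correlated across all 32321 probe sets with r = 0.477 (replicate 1 minus monoculture 1 with replicate 2 minus monoculture 2) and 0.441 with the monoculture arrays exchanged. Probe sets are no independent replicates. All 33 ribosomal protein genes were higher on replicate 2 than on replicate 1, with medians of -0.04 and 0.28. Small nucleolar and Cajal body RNAs, counted as a class, followed in part: 73 of 197 lay above monoculture and 13 below, with medians of 0.04 and 0.24. Over all probe sets 25.7% lay above and 20.9% below.

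**Figure D5:**
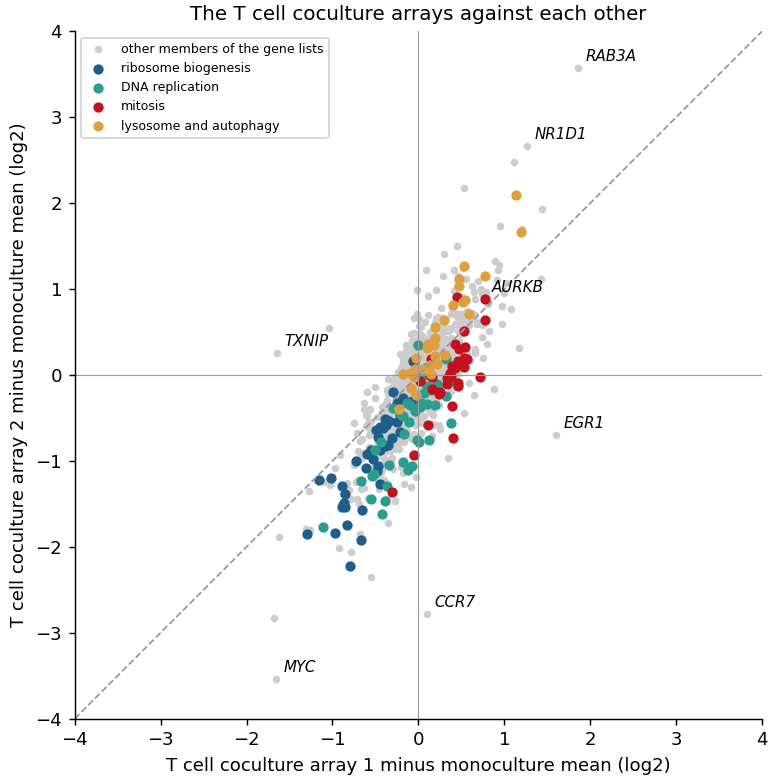
Log2 difference from the monoculture mean on T cell coculture replicate 2 (vertical) against replicate 1 (horizontal), 1 point per gene of the gene lists and the labelled genes, with 4 lists in color; on the dashed diagonal the replicates are equal. Most ribosome biogenesis genes lie below 0 on both axes and below the diagonal, and CCR7, EGR1 and TXNIP lie far from it.

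T cell coculture was compared with monocyte coculture to ask which differences were tied to the kind of blood cell. Both were first set against the same monoculture arrays. In all 30 genes of widest gap the monocyte coculture mean lay on the same side of monoculture as the T cell coculture mean. The 30 were chosen by their distance from those same monoculture arrays, which favours such agreement. Of 42 ribosome biogenesis genes, 42 and 41 lay below both monoculture arrays on the monocyte coculture arrays, against 37.2% and 39.3% of all genes. The list median was -0.78 with monocytes and -0.69 with T cells. Between the cocultures limma called 0 of 32321 probe sets (0.0%), with a smallest adjusted p of 0.4444 and 2422 probe sets at an unadjusted p under 0.05. Both T cell coculture arrays lay above both monocyte coculture arrays in 3300 of 18404 genes (17.9%) and below both in 3345 (18.2%). Mitosis and histone genes stood above: 24 of 32 and 19 of 32, with 0 below in either list and median differences of 0.45 and 0.49. Of 25 chaperones 15 lay above and 2 below, and of 22 nucleotide synthesis genes 12 above and 0 below. Genes of the ATF4 and amino acid response lay the other way, with 0 of 24 above and 15 below and a median difference of -0.21.

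Single genes with the smallest p in this comparison were H4C4, ANAPC15, PRR11, MPP7 and MCOLN2 above monocyte coculture and ALDH1L2, SPIRE1, FNDC3A, LRRC39 and SIRPA below it, all with a limma adjusted p of 0.4444. The histone gene H4C4 measured 7.22 and 7.07 with T cells and 6.17 and 6.14 with monocytes, with monoculture between at 6.75 and 6.73. PRR11, a cell cycle gene, measured 9.82 and 9.77 against 9.07 and 9.0, with monoculture at 9.40 and 9.35. ALDH1L2 was lower with T cells than with monocytes by 0.93 ± 0.11. SIRPA, the receptor of CD47 and abundant on monocytes, measured 6.08 and 6.30 with T cells and 7.0 and 6.88 with monocytes.

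The genes that the study named from these same arrays are no independent evidence of their direction. All 11 measured genes named as higher in coculture lay above monoculture on both T cell coculture arrays, with medians of 0.79 and 1.25, and 10 did so after centring. The study named HSN2, which was counted here under the symbol WNK1 with the brighter of the WNK1 probe sets. That probe set differed by 0.12 with a gap of 0.02, and it was the one lost after centring. The study placed HSN2 among the most strongly upregulated genes, and the dimmer WNK1 probe set, described above, differed by 2.27. Which probe set measures HSN2 was not tested. MAPK8, the stress kinase JNK1, measured 6.91 and 6.91 against 7.43 and 8.16. All 18 genes named as lower lay below, with medians of -0.69 and -1.33. RUVBL1, an ATPase of chromatin remodelling, measured 8.96 and 9.06 against 8.33 and 7.16, DKC1, the pseudouridine synthase of box H/ACA particles, 9.65 and 9.55 against 8.95 and 8.03, and the transcription factor MYB 8.48 and 8.29 against 7.97 and 7.28. Each of these 3 lay below monoculture on both arrays, and replicate 2 was lower than replicate 1 in all 18.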

How the data were processed

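The authors hybridised amplified RNA (40 ng) to Affymetrix Gene 1.0 arrays and deposited 1 normalized log2 value per probe set and array; how these were summarised and normalized is not given in the sources used here. Values were used as deposited (array medians 5.64 to 5.73), with groups from the labels. Precision is limited by the number of arrays. Of 32321 probe sets, 19158 carried 1 gene symbol (18404 genes), 1388 several and 11775 none in the platform table; 19128 were found by Entrez identifier in RefSeq (GRCh38.p14), and 0 had a newer symbol.

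One mean per group was fitted over all 6 arrays with limma 3.58.1 (R 4.3.3; lmFit, eBayes, 3 residual and 3.08 prior degrees of freedom). P-values were adjusted by Benjamini-Hochberg across the whole table, and calls needed an adjusted p under 0.05. The fit was tested on simulated data. Errors are standard errors of the fit.

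The comparison, the 38 function lists and the 6 marker lists were chosen with earlier results of these data known. In lists, the brightest probe set on average stands for a gene. Named genes come from probe sets with 1 gene symbol, apart from MIR155. They were chosen by the 15 widest gaps each way, up to 4 members per list by smallest p, T cell markers, genes the study named, the 10 largest differences between the T cell coculture replicates each way, up to 5 each way with replicates on opposite sides, and 5 each way against monocyte coculture. UTP20, CTSD and ATP6V0D1 were named for their promoters. Alternatives were scaling, a filter on dim probe sets, the arrays in the fit, the estimate of the spread, leaving out each array, and a replicate block.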

Additional observations from a re-analysis of the deposited data

Results flagged for a closer look

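Several genes lay on 1 side of monoculture on both T cell coculture arrays and on the other side on both monocyte coculture arrays. T cell coculture exceeded monocyte coculture by 0.99 for H4C4, 0.77 for PRR11 and 0.72 for MPP7, a polarity scaffold, on the log2 scale. It was below monocyte coculture for SPIRE1, an actin nucleator (-0.80), FNDC3A (-0.65) and LRRC39 (-0.77). The difference did not pass limma's test in any of the 6 (adjusted p = 0.444 each).

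For 3 gene lists the medians of both T cell coculture arrays had 1 sign and those of both monocyte coculture arrays the other. The medians over the mean of both T cell coculture arrays were 0.0641 for cytokine receptor and STAT genes, -0.1667 for ATF4 and amino acid stress genes and -0.0011 for glycolysis and hypoxia genes. The difference between the cocultures was not tested for lists. For glycolysis that median is near 0 and differs in sign from the medians of the single arrays, 0.02 and 0.04 with T cells, against -0.13 and -0.15 with monocytes. The single arrays gave 0.04 and 0.10 against -0.02 and -0.04 for cytokine receptor genes, and -0.11 and -0.30 against 0.06 and 0.00 for ATF4 genes.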

How the results depend on the processing

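Without single arrays, probe sets called against monoculture ranged from 0 to 317 higher and from 0 to 1074 lower, and against monocyte coculture from 0 to 1 lower. The calls against monoculture came only without T cell coculture replicate 1, and the 1 against monocyte coculture without monocyte coculture replicate 2. The counts of probe sets above both monoculture arrays ranged from 11741 to 14960 and below from 10076 to 11541, since fewer arrays have to agree. Median centring gave 5203 above, and the filter on the dimmest 40% of probe sets 5471 of fewer tested.

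Quantile normalization, median centring, the dim filter, the 4 arrays alone, the intensity trend and the replicate block each called 0; the replicate block had 5313 at an unadjusted p under 0.05. Deviations of same-numbered arrays correlated across probe sets with r = 0.027 between T cell coculture and monoculture and 0.261 between the cocultures; with 2 arrays a group the samples were taken to share only a number. Of 55 genes followed through these alternatives and the leaving out of each array, none reversed. Those that passed the threshold did so only without T cell coculture replicate 1. List medians changed sign under centring for 5 lists and quantile normalization for 7, each under 0.1 in size.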
